A study of Mus musculus with 18 samples.

Results

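The interleukin 6 cytokine family was followed in infarcted mouse hearts through 9 transcripts: the ligands Il6, Il11, Lif and Osm, the receptor chains Osmr and Il6st (gp130), the transcription factor Stat3, its feedback inhibitor Socs3, and Sprr1a, which encodes small proline-rich protein 1A. The members are a list of gene names, and all 9 were found among the 12988 genes of the deposited table. Messenger RNA levels in whole heart RNA are given as FPKM, a fragment count corrected for the length of the transcript and the size of the library, in 18 libraries. Newborn mice were injected under the skin with adeno-associated virus of serotype 9, either carrying mouse Fgf17 (a secreted growth factor of the FGF family) or as the control vector. Surgery was performed by 8 weeks of age. Myocardial infarction (MI) was induced by tying the left anterior descending coronary artery permanently, and sham surgery omitted the tie. The groups were sham with control vector (4 libraries), MI day 3 with control vector (4), MI day 3 with FGF17 (4), MI day 14 with control vector (3) and MI day 14 with FGF17 (3). Every group had therefore received a viral vector. The labels give no day for the sham hearts, no promoter for the vector, no mouse strain or sex, and no sham group with Fgf17. Nor is it stated that each library is a different animal, so p-values measure the spread between these libraries, which may in part be technical.

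Cytokines of this family bind a ligand-specific receptor chain and share gp130, the chain that signals. Receptor-bound Janus kinases (JAK) then phosphorylate STAT3, which enters the nucleus and switches on target genes, among them Socs3, whose product binds gp130 and JAK and shuts the signal down. In the heart, gp130 signalling is known for its part in cardiomyocyte growth and survival and in the inflammatory and scarring response to injury. Sprr1a is best known from squamous epithelia, where its product is a cross-linked precursor of the cornified envelope. It is also known to be induced in stressed cardiomyocytes by gp130 cytokines and in injured neurons.

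The vector transcript itself matched the labels. Fgf17 was at 47.0 to 75.6 FPKM in the 4 MI day 3 FGF17 libraries and at 45.3 to 93.4 FPKM in the 3 MI day 14 FGF17 libraries, against at most 0.380 FPKM in any library with control vector. Summed FPKM ran from 301085 to 362004 per library, and read depth is unknown. Mitochondrially encoded transcripts made up 35.6 to 41.7% of summed FPKM in sham and 18.8 to 28.4% in MI day 3 control hearts. Cardiomyocyte markers were present in every library, with a summed level of 8809 to 10400 FPKM in sham and 6228 to 7590 FPKM at MI day 3 with control vector. Macrophage markers (9 genes) summed to 216 to 242 FPKM in sham, 1206 to 1441 FPKM at MI day 3 and 663 to 1016 FPKM at MI day 14 with control vector. Neutrophil markers (9 genes) summed to 5.42 to 28.0, 187 to 344 and 12.3 to 29.5 FPKM in those groups, and Trem1, a receptor of granulocytes and monocytes, was listed at 0 in every sham library. Fibroblast markers (10 genes) summed to 243 to 280, 890 to 1119 and 922 to 1252 FPKM. Erythroid markers (7 genes) summed to 1765 to 4010, 15140 to 25730 and 3420 to 14310 FPKM, and T cell markers (5 genes) to 0.560 to 0.982, 2.99 to 4.45 and 2.58 to 2.71 FPKM. All 9 macrophage, all 9 neutrophil, all 7 erythroid and 9 of 10 fibroblast markers rose at day 3, together with most of the transcripts described below. Of all genes tested, 45.9% were higher and 15% lower than sham at day 3 with control vector. At day 14 the summed endothelial, smooth muscle, skeletal muscle, adipocyte, mesothelial, nerve and keratinocyte markers also lay above every sham library. Those of adipocytes were at 66.4 to 113 FPKM against 12.5 to 37.4 FPKM. Endothelial markers were above sham at day 3 too (224 to 249 against 201 to 220 FPKM, with 2 of 9 higher and 2 lower). The part of these cell types in the changes was not tested. In whole-heart RNA, fewer cells of a type and less RNA per cell cannot be told apart.

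At day 3 after infarction Sprr1a rose by 7.50, Il6 by 2.89 and Socs3 by 2.09 on the log2 scale, while Il6st, at 0.05, did not pass the test. Differences between transcripts in these changes were not tested. At that day, 8 of the 9 transcripts were higher than in sham, Il6st being the exception, and none was lower. Among all 12052 genes tested, 45.9% were higher and 15% lower. At day 14, 7 of 9 were higher, all but Osm and Il6st, against 41% of genes higher and 9% lower. Il6, Il11, Lif and Osm were tested only because day 3 libraries reached the minimum level, so their rise supports nothing in the day 3 count. The median log2 change of all genes was 0.25 at each day. Changes are differences of mean log2(FPKM + 0.5), which understate the change of low transcripts. They come from limma, fitted to all genes and all 18 libraries, with Benjamini-Hochberg adjusted p-values over all genes of a contrast and a threshold of 0.05. The choice of scaling moves the baseline. With median-of-ratios scaling, which equalises the typical gene, the median change of all genes at day 3 became -0.01. The split of higher to lower genes went from 5535 and 1802 to 3613 and 3603, and 6 of the 9 transcripts passed. Stat3 and another transcript, not identified here, lost their day 3 call. Without MI day 14 control library 1 the day 14 count was 4. For day 14 that scaling moved the split from 4940 and 1085 to 2949 and 2692, with 3 of the 9 transcripts passing.

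**Figure D1:**
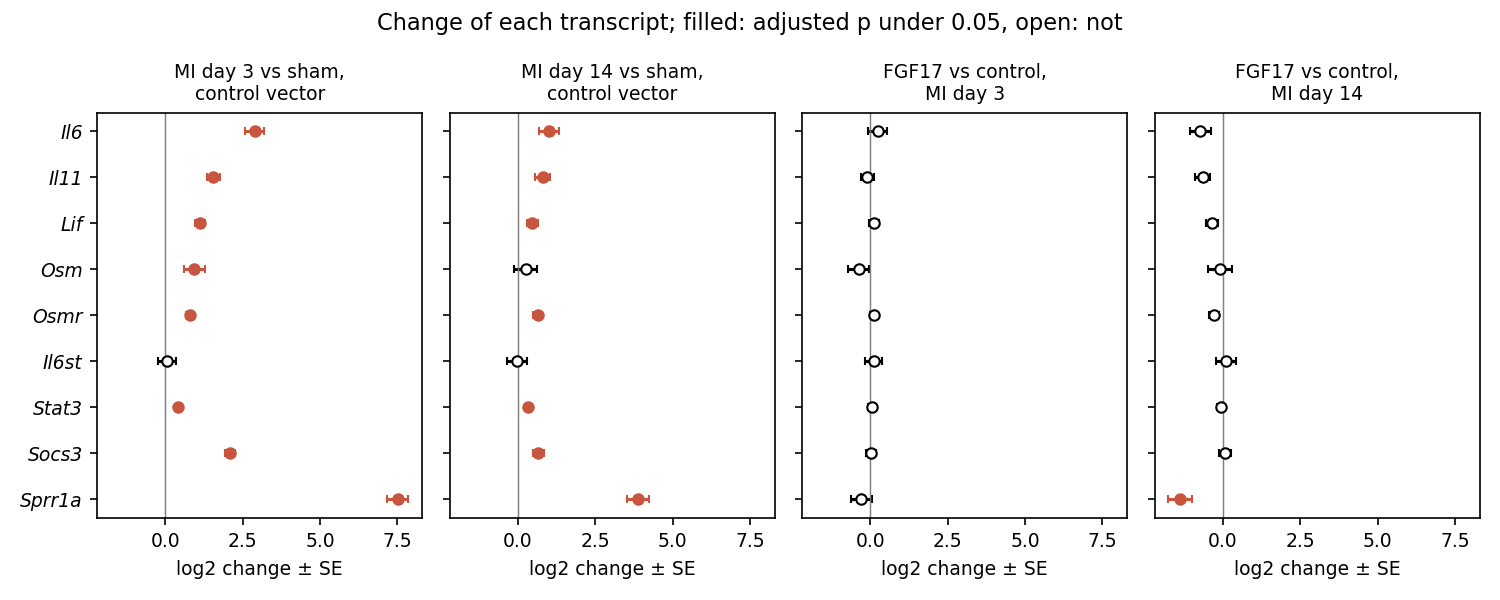
Log2 change ± standard error (horizontal axis) of each of the 9 transcripts in 4 comparisons, from limma on log2(FPKM + 0.5). Filled symbols passed an adjusted p of 0.05. Sprr1a changed most after MI (7.50 at day 3), Il6st lay at 0.05, and with FGF17 only Sprr1a at day 14 (-1.39) is filled.

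Among the ligands, Il6 reached the highest level. Il6 (ENSMUSG00000025746.11, chr5:30013114-30019981, plus strand, GRCm38) encodes interleukin 6, an inflammatory cytokine of macrophages, fibroblasts and other cells. Sham libraries held 0.0568, 0.108, 0 and 0 FPKM, and MI day 3 control libraries 3.99, 3.38, 3.02 and 3.69 FPKM. At day 14 the control libraries held 1.08, 0.516 and 0.306 FPKM. The 3 groups did not overlap, and day 14 lay between sham and day 3. Il6 rose by 2.89 ± 0.30 (SE, adjusted p = 3e-07) at day 3, was still 1.01 ± 0.33 above sham at day 14 (adjusted p = 0.0162), and fell by 1.88 ± 0.33 between the days (adjusted p = 0.000314). The day 14 call was lost without MI day 14 control library 1 (adjusted p = 0.107) and with a pseudocount of 1 (0.0741).

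Il11 (ENSMUSG00000004371.14, chr7:4772373-4782857, minus strand) encodes interleukin 11, a cytokine linked to cardiac fibroblasts and fibrosis. It was listed at 0 in 3 sham libraries and at 0.0657 FPKM in the other. MI day 3 control libraries held 1.45, 0.608, 1.24 and 0.893 FPKM, and MI day 14 control libraries 0.476, 0.383 and 0.340 FPKM. Again the groups stood apart in the order day 3, day 14, sham. Il11 rose by 1.55 ± 0.21 at day 3 (adjusted p = 7.55e-06) and by 0.80 ± 0.23 at day 14 (0.00842). It fell by 0.75 ± 0.23 between the days (0.0203), a call lost when any 1 of 4 libraries was left out (MI day 3 control 1 or 3, MI day 14 control 2 or 4; adjusted p 0.0523 to 0.0744).

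Lif (ENSMUSG00000034394.14, chr11:4257557-4272514, plus strand) encodes leukaemia inhibitory factor, which signals through gp130 paired with Lifr and causes cardiomyocyte growth in culture. Sham libraries held 0.123, 0.0608, 0.0914 and 0.207 FPKM, and MI day 3 control libraries 0.770, 1.16, 0.478 and 1.07 FPKM. MI day 14 control libraries held 0.475, 0.278 and 0.310 FPKM, just below the lowest day 3 library and above all sham libraries. Lif rose by 1.12 ± 0.16 at day 3 (adjusted p = 1.48e-05) and fell by 0.66 ± 0.18 from day 3 to day 14 (0.00915). The fall was not called when only the 2 groups compared were fitted (adjusted p = 0.0526). Its day 14 difference from sham, 0.46 ± 0.18 (adjusted p = 0.0391), rested on few libraries: leaving out sham 1, 2 or 4 or MI day 14 control 1 or 4 gave 0.0565 to 0.164, a pseudocount of 1 gave 0.0689 and median-of-ratios scaling 0.0728.

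Osm (ENSMUSG00000058755.3, chr11:4236420-4241026, plus strand) encodes oncostatin M, a cytokine of neutrophils and macrophages that acts on cardiomyocytes through Osmr. It was uneven between libraries. MI day 3 control libraries 1 and 4 held 1.34 and 1.06 FPKM, while libraries 2 and 3 held 0.180 and 0.150 FPKM, close to the highest sham library (0.116 FPKM). At day 14 the control libraries held 0.0497, 0.0598 and 0.433 FPKM, and sham libraries 0, 0.116, 0 and 0.11 FPKM. Osm rose at day 3 by 0.94 ± 0.34 (adjusted p = 0.0246), and this call was lost without sham library 1 (0.0551) or 4 (0.0545). At day 14 the difference from sham was 0.25 ± 0.37 (adjusted p = 0.594). The filter required 1 FPKM in 3 libraries. Il11, Lif and Osm met it only through day 3 libraries (4, 4 and 3 of them), and Il6 through 8 day 3 libraries and 1 other. A high level at day 3 was therefore built into their being tested, in comparisons with sham and with day 14 alike.

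**Figure D2:**
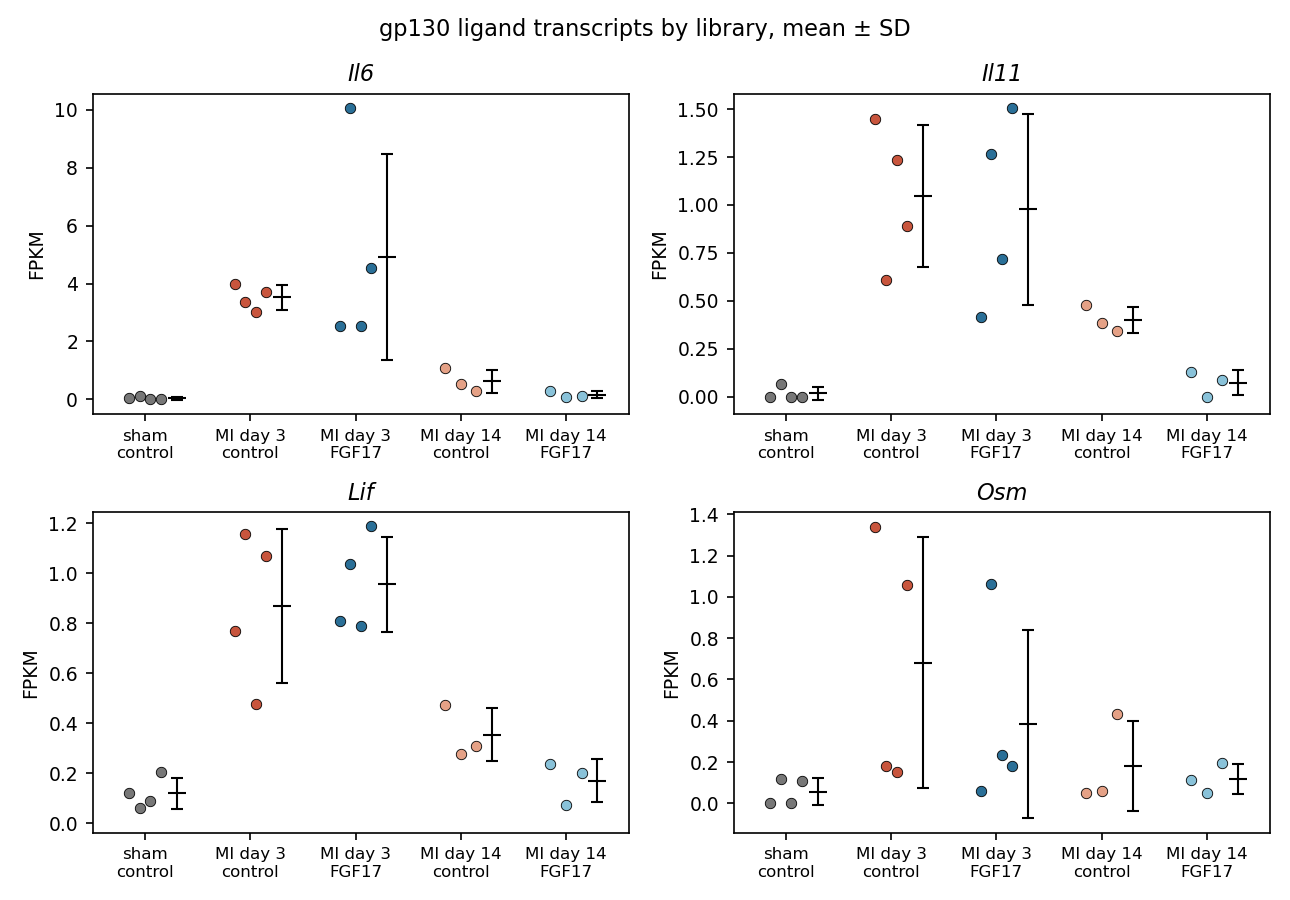
FPKM of Il6, Il11, Lif and Osm in each library (points) of the 5 groups, with the mean and SD beside them. Il6, Il11 and Lif stand highest in both day 3 groups, Osm is split within them, and 1 MI day 3 FGF17 library reached 10.1 FPKM of Il6.

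The stretch before the transcription start is shown for 3 ligands because each carries the letters TGANTCA, the core that AP-1 (Jun and Fos) proteins bind. Sequences are from RefSeq (GRCm38.p6) and capitals mark the match. In the 250 bases before each start, TGANTCA was found for Il6, Il11, Lif and Sprr1a, which is 4 of the 8 transcripts with a RefSeq window, and in 6.75% of 32851 mouse windows. It reads the same on both strands. A match in letters is a description and not a measured binding site. The stretches are Il6 at chr5:30012864-30012901 (plus strand), Il11 at chr7:4778203-4778269 (minus strand) and Lif at chr11:4257318-4257376 (plus strand).
Il6: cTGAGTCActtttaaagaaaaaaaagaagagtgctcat
Il11: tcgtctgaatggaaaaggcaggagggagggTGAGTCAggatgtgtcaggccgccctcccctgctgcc
Lif: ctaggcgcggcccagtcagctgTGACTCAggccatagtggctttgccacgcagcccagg
Il11 had 2 windows, and so 2 chances of a match. Its match lies before the start of an alternative RefSeq transcript, and the match in Il6 stands 249 to 243 bases before the start.

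Of the receptor chains, Osmr rose and gp130 did not pass the test. Osmr (ENSMUSG00000022146.12, chr15:6813577-6874969, minus strand) encodes the oncostatin M receptor chain that pairs with gp130. Sham libraries held 4.06, 3.69, 2.75 and 3.55 FPKM, MI day 3 control libraries 6.79, 6.12, 8.17 and 4.93 FPKM, and MI day 14 control libraries 6.30, 5.67 and 5.15 FPKM. Both infarct groups lay above every sham library and overlapped each other. Osmr rose by 0.79 ± 0.14 at day 3 (adjusted p = 9.49e-05) and by 0.64 ± 0.15 at day 14 (0.00213), and the day 14 call was lost with median-of-ratios scaling (0.0539). The difference between the days was -0.16 ± 0.15 (adjusted p = 0.467).

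Il6st (ENSMUSG00000021756.12, chr13:112464070-112510086, plus strand) encodes gp130. Sham libraries held 24.2, 15.1, 22.7 and 11.1 FPKM, MI day 3 control libraries 15.4, 26.3, 16.9 and 15.5 FPKM, and MI day 14 control libraries 13.5, 26.2 and 14.0 FPKM. The spread within groups was wide: no library lay between 17.6 and 22.7 FPKM, and every group had libraries on both sides of that gap. Above it were 7 of the 18 libraries (2 in sham, 1 in MI day 3 control, 2 in MI day 3 FGF17, 1 in each day 14 group). Its change was 0.05 ± 0.29 at day 3 (adjusted p = 0.889) and -0.03 ± 0.31 at day 14 (0.946), with a sign that changes with the scaling. An SE near 0.3 leaves a moderate change undetectable here. The annotation lists 10 transcripts of Il6st, 9 of them coding, which a gene-level value does not tell apart.

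On the FPKM scale, which corrects for transcript length, Osmr stood at 0.206 of Il6st in the median sham library and at 0.380 of it in the median MI day 3 control library. The ranges, 0.121 to 0.321 and 0.232 to 0.483, overlapped. Lifr, the chain used by Lif, was measured alongside. It stood at 1.58 to 2.37 times Osmr in sham and at 0.900 to 1.26 times Osmr at MI day 3 with control vector, ranges that did not overlap. Lifr itself was at 7.14 ± 0.781 FPKM in sham (SD, n = 4) and 6.45 ± 0.611 FPKM at MI day 3 (n = 4), a change of -0.13 ± 0.09 that did not pass the test (adjusted p = 0.204).

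Downstream of the receptors, both the transcription factor and its feedback inhibitor rose at day 3. Stat3 (ENSMUSG00000004040.16, chr11:100885098-100939540, minus strand) was at 10.3, 12.1, 9.79 and 10.6 FPKM in sham and at 16.0, 13.4, 15.4 and 13.1 FPKM at MI day 3 with control vector. At MI day 14 the control libraries held 13.8, 14.7 and 12.2 FPKM, also above every sham library. Stat3 rose by 0.42 ± 0.10 at day 3 (adjusted p = 0.00152) and by 0.33 ± 0.11 at day 14 (0.0182), little more than the 0.25 of the median gene. The day 3 call was lost with median-of-ratios scaling (0.13, adjusted p = 0.261) and without mitochondrially encoded genes (0.24, 0.0604). The day 14 call was lost under those settings (0.635 and 0.101), with a replicate block (0.0534) and without sham library 4 or MI day 14 control library 1 or 2 (0.0513 to 0.0874). Stat3 overlaps Stat5a on the opposite strand. Whether counting used strand is not given in the sources used here, so reads of the overlap may be shared. A transcript level says nothing of STAT3 phosphorylation, which was not measured.

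Socs3 (ENSMUSG00000053113.3, chr11:117966079-117970047, minus strand) was at 2.66, 2.66, 2.42 and 3.40 FPKM in sham and at 11.7, 12.2, 14.2 and 16.0 FPKM at MI day 3 with control vector. At MI day 14 it was at 5.66, 4.31 and 4.12 FPKM. The 3 groups did not overlap. Socs3 rose by 2.09 ± 0.17 at day 3 (adjusted p = 1.07e-08), a 4.86-fold ratio of mean FPKM, and fell by 1.43 ± 0.18 from day 3 to day 14 (1.34e-05). At day 14 it was still 0.66 ± 0.18 above sham (0.0062), a call lost with median-of-ratios scaling (0.0562). Socs3 stood at 0.220 to 0.321 of the Stat3 level in sham, at 0.729 to 1.22 of it at day 3 and at 0.294 to 0.410 of it at day 14, in FPKM.

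**Figure D3:**
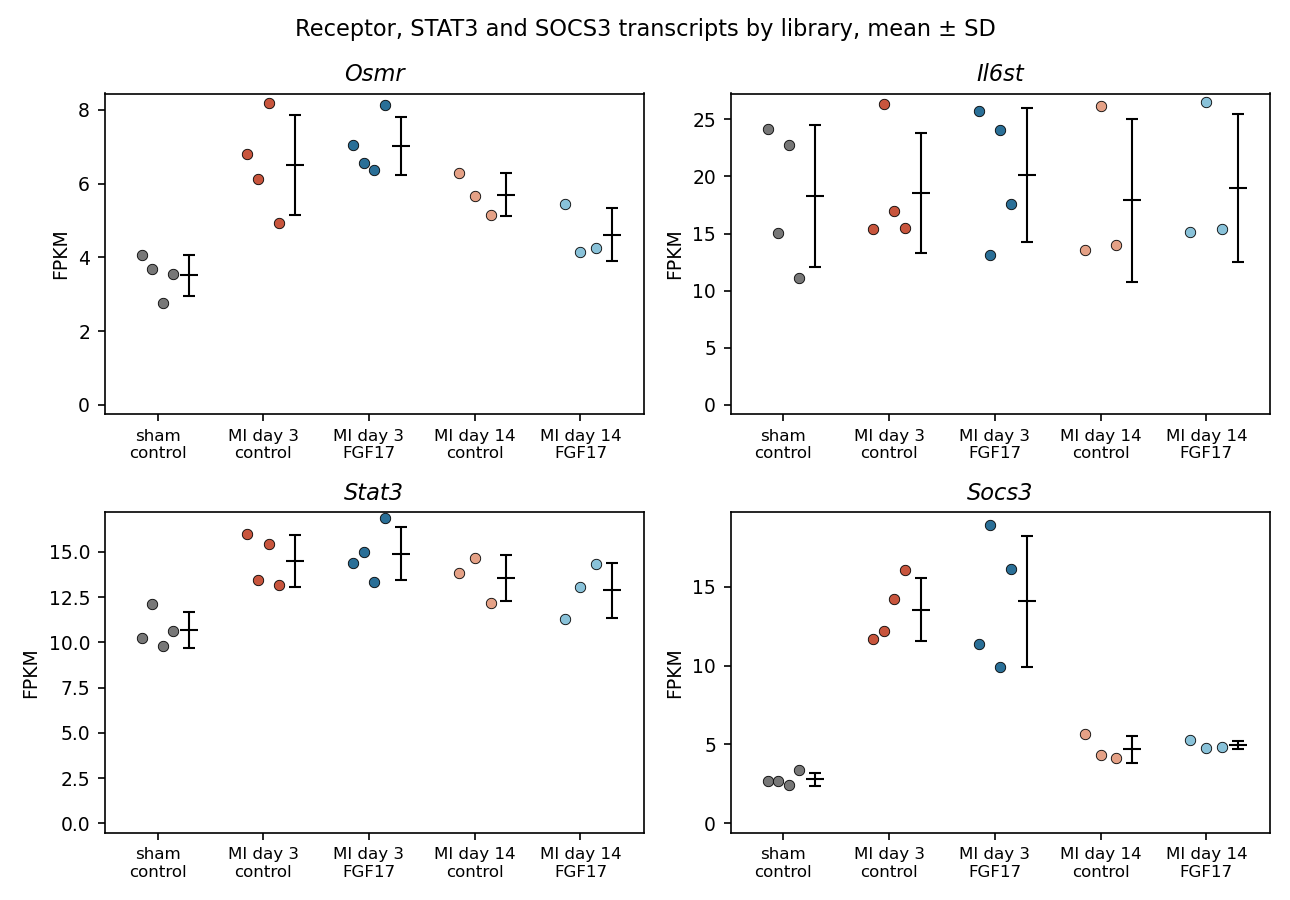
FPKM of Osmr, Il6st, Stat3 and Socs3 in each library (points) of the 5 groups, with the mean and SD beside them. Socs3 is highest in both day 3 groups (9.93 to 18.9 FPKM), and Il6st has libraries above 22 FPKM and below 18 FPKM in every group.

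A stretch of the Socs3 window is shown because that window is the only one of the set with the STAT letters TTCNNNGAA, in capitals here, on either strand (the core reads the same on both). These letters occur in 7.02% of the 32851 windows. The closer form TTCCNGGAA, found in 0.913% of all windows, was in none of the 8 transcripts' windows. The stretch (RefSeq, GRCm38.p6, chr11:117969482-117969550, minus strand) is cut from the 250 bases before the RefSeq start, which differs from the start of the coding transcript in the GENCODE annotation.
Socs3: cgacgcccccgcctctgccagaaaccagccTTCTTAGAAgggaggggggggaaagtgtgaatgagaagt
The match stands 154 to 146 bases before that RefSeq start.

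Sprr1a showed the widest range of the 9 transcripts. Sprr1a (ENSMUSG00000050359.7, chr3:92483952-92485895, minus strand) was at 0.936 and 0.490 FPKM in sham libraries 1 and 2 and listed at 0 in libraries 4 and 5. MI day 3 control libraries held 131, 181, 131 and 122 FPKM. By day 14 the control libraries were down to 10.6, 13 and 9.39 FPKM, far from both other groups. Sprr1a rose by 7.50 ± 0.33 at day 3 (adjusted p = 9.77e-12) and was 3.88 ± 0.36 above sham at day 14 (2.67e-07). It fell by 3.62 ± 0.36 between the days (1.15e-06). Because sham lies at or near 0, the size of the change from sham depends on the pseudocount, and the levels are the safer description.

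**Figure D4:**
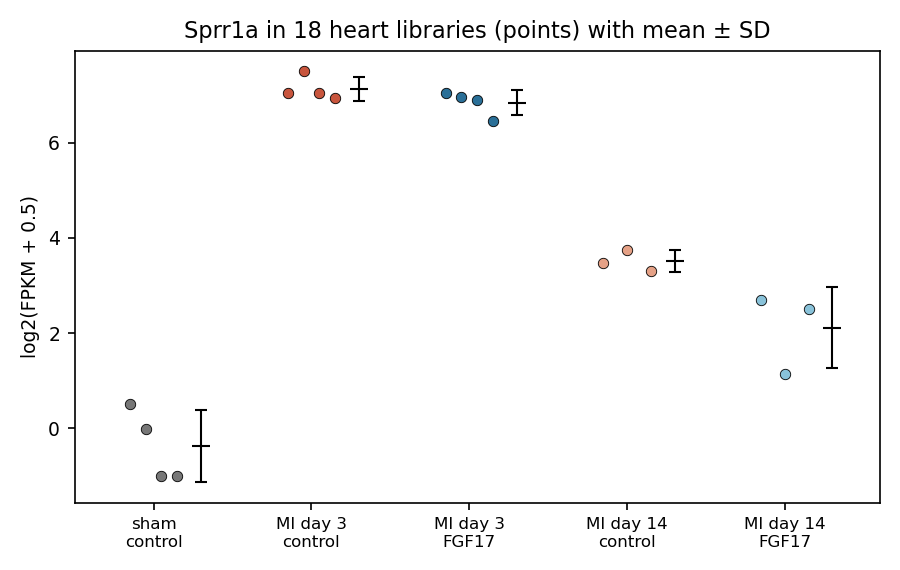
Sprr1a as log2(FPKM + 0.5) in each of 18 libraries (points) with group mean and SD. The 4 sham libraries lie at the bottom, both day 3 groups at the top and both day 14 groups between, the 3 FGF17 libraries below the 3 control libraries.

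Most of the Sprr1a window is shown because it holds the AP-1 letters at 2 places (capitals) and no TTCNNNGAA. These places stand 146 to 140 and 116 to 110 bases before the RefSeq start. The stretch is RefSeq sequence (GRCm38.p6, chr3:92485896-92486131, minus strand), from 250 to 15 bases before that start. It ends before the first base of the gene in the GENCODE annotation, which differs from the RefSeq start. The run ttataaaa lies near its end, written as the strand of the gene reads.
Sprr1a: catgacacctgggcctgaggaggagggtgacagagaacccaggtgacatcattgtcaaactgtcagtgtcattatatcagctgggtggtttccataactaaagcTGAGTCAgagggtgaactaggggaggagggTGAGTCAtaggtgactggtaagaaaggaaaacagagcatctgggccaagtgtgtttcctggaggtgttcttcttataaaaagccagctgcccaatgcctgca
Beyond this window no sequence was searched.

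Relatives of Sprr1a were compared to see whether the family moved with it. Of 19 genes of the SPRR family and the cornified envelope, a list that includes Sprr1a itself, 5 were in the table. The 4 that passed the filter were Sprr1a, Sprr2a1, Sprr2a2 and Ppl. Sprr2a1 and Sprr2a2, near-identical genes whose reads may be shared, rose at day 3 by 1.57 ± 0.17 and 1.76 ± 0.20 (adjusted p = 4.23e-07 and 1.03e-06), from 0.265 and 0.387 FPKM in sham to 1.79 and 2.53 FPKM. They fell between the days by 1.495 ± 0.18 and 1.61 ± 0.22 (adjusted p = 9.25e-06 and 3.29e-05), and at day 14 did not pass the test against sham (0.766 and 0.576). Their sham means were under the 1 FPKM of the filter, so their being tested may rest on their day 3 levels. Their rise and fall are therefore no independent sign that the family moved with Sprr1a. Ppl, which encodes periplakin, a cell junction and envelope protein, fell at day 3 by 1.07 ± 0.19 (adjusted p = 0.000125). Of 9 keratinocyte markers only 2 were in the table, with a summed level of at most 5.55 FPKM in any library. Their sum was 1.23 to 1.81 FPKM in sham and overlapped it at MI day 3 with control vector (0.987 to 5.55 FPKM). At MI day 14 it lay above every sham library, at 3.22 to 3.93 FPKM with control vector and 2.37 to 3.46 FPKM with FGF17. Their part in the Sprr1a changes was not tested.

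By pattern over the 18 libraries, the genes nearest to Sprr1a were Spp1, Arg1 and Tnc. The measure was the root mean square difference of log2(FPKM + 0.5), each gene set to its own sham mean, over 11618 genes. It was 0.651 for Spp1 (osteopontin, a matrix cytokine of macrophages and other cells), 0.963 for Arg1 (arginase 1, a macrophage enzyme) and 1.07 for Tnc (tenascin C, an injury matrix protein). Spp1 went from a mean of 2.48 FPKM in sham to 662 FPKM at MI day 3 and 33.9 FPKM at MI day 14 with control vector. The nearest to Socs3 were Aldh3b1, Myc and Soat1 (0.214, 0.233 and 0.244), Myc encoding a growth-promoting transcription factor. For Il6 they were Cxcl10, Depdc1a and Msr1 (0.368, 0.394 and 0.411), of which Cxcl10 encodes an interferon-induced chemokine and Msr1 a macrophage scavenger receptor. For Osmr they were Shc1, Tm9sf3 and Fam206a (0.155, 0.158 and 0.159). Small values for Osmr, Socs3 and Il6 come in part from their smaller range.

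The remaining genes of the pathway give the setting. Of 4 other ligand genes described here, 2 rose at day 3 and none fell. Ebi3, a subunit of interleukin 27, rose by 1.47 ± 0.25 and Clcf1 by 0.84 ± 0.13 at day 3. Cntf, ciliary neurotrophic factor, was lower at day 14 by 1.81 ± 0.47 (adjusted p = 0.00433). Ctf1, cardiotrophin 1, gave -0.40 ± 0.30 at day 3 (0.273).

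Of 5 other receptor chains, 2 rose at day 3, Il6ra (the interleukin 6 binding chain) by 0.93 ± 0.12 and Il27ra by 0.95 ± 0.13, and Cntfr fell by 0.58 ± 0.19. Both risers were also higher at day 14, by 0.96 ± 0.13 and 0.93 ± 0.14. Il11ra1, the interleukin 11 binding chain, gave -0.30 ± 0.15 at day 3 (adjusted p = 0.106), and near-identical Il11ra2 copies are also in the table, so its value is uncertain. Of 6 other kinases, STATs and adaptors described here, 3 rose at day 3 (Tyk2 by 0.82 ± 0.12, Jak2 by 0.65 ± 0.06 and Jak1 by 0.40 ± 0.08) and 2 fell, Ptpn11 by 0.34 ± 0.09 and Stat5b by 0.29 ± 0.10. The Jak1 call was lost with median-of-ratios scaling (adjusted p = 0.178), and that of Stat5b after rescaling to 1000000 (0.122) and without any 1 of 5 libraries (0.0568 to 0.0923). Of 9 other feedback genes, 4 rose at day 3 and 2 fell. With 45.9% of all genes higher and 15% lower, the counts of ligand, receptor, kinase and feedback genes that rose are near the background. The phosphatase gene Ptpn6, which is also a leukocyte gene, rose by 2.22 ± 0.15 and Socs1 by 0.995 ± 0.17, while Socs7 fell by 0.49 ± 0.10 and Cish by 0.54 ± 0.16.

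**Figure D5:**
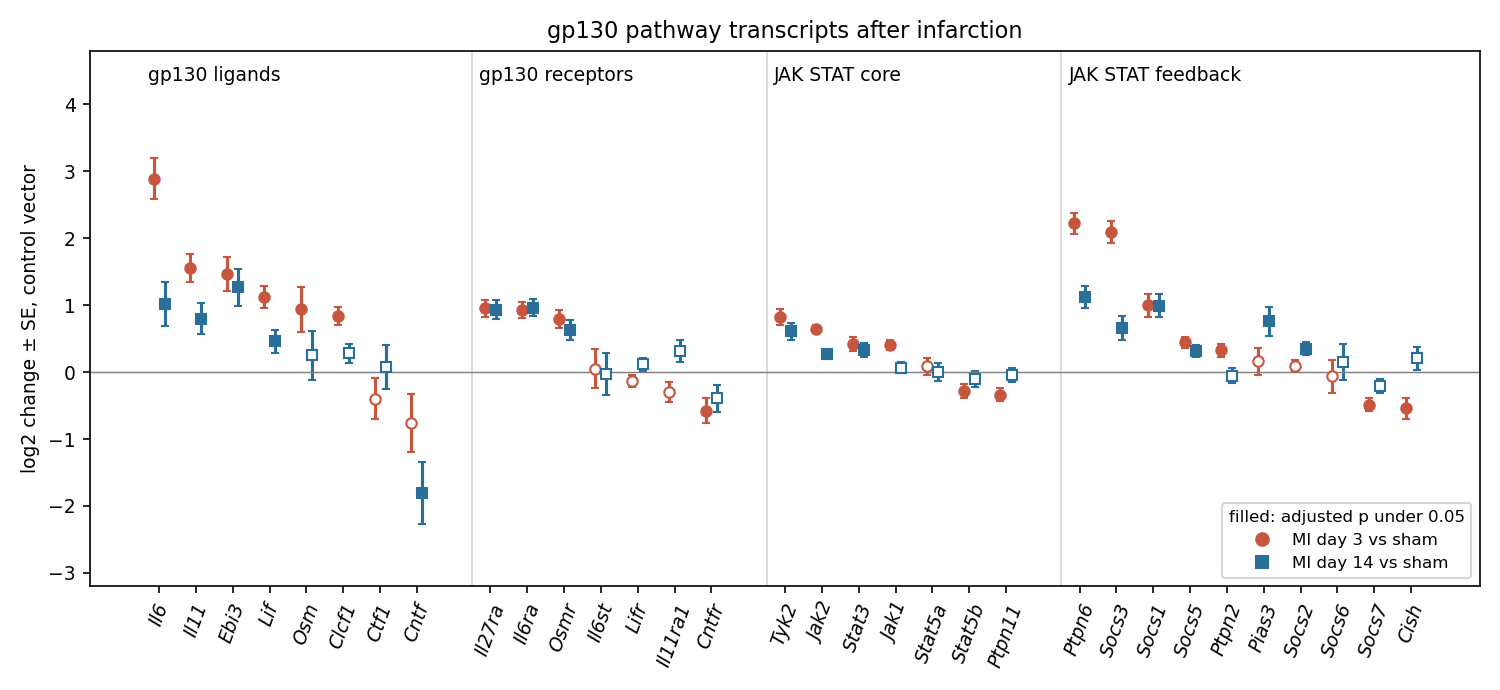
Log2 change ± standard error against sham (vertical axis) for the genes of 4 lists described here, at MI day 3 (circles) and MI day 14 (squares) with control vector. Filled symbols passed an adjusted p of 0.05. Il6, Ptpn6 and Socs3 rose by more than 2 at day 3 and were smaller at day 14.

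Of 25 measured genes known to respond to STAT3, 21 rose and 1 fell at day 3, with a median change of 1.27 against 0.25 for all genes. Of all genes, 45.9% were higher and 15% lower. Timp1, an inhibitor of matrix-degrading enzymes, rose by 5.75 ± 0.23, from 5.61 ± 1.20 to 324 ± 33.9 FPKM (SD, n = 4 each). Ch25h, cholesterol 25-hydroxylase, rose by 3.19 ± 0.16 and Il4ra, an interleukin 4 receptor chain, by 2.75 ± 0.15. At day 14, 16 rose and 2 fell, with a median of 0.55, beside 41% of all genes higher and 9% lower. From day 3 to day 14, 15 fell, among them Timp1 (-2.71 ± 0.25), and 1 rose, beside 18.3% of all genes lower and 11.2% higher. Of 20 cardiomyocyte stress genes, 8 rose and 2 fell at day 3, with a median of 0.20, near or below the 45.9% higher and the median of 0.25 of all genes. Gdf15, a stress cytokine, rose by 2.34 ± 0.26 and Runx1, a transcription factor of blood cells and injured cardiomyocytes, by 1.65 ± 0.18. Gene lists such as these hold genes that other pathways also switch on. They were also chosen with earlier results of these data known, so their counts are a description and no measure of STAT3 activity.

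From day 3 to day 14 with control vector, 5 of the 9 transcripts fell (Il6, Il11, Lif, Socs3 and Sprr1a) and none rose. Of all genes, 18.3% were lower and 11.2% higher. Il6, Il11 and Lif, however, were tested only because of their day 3 levels, so their falls cannot be read against that share. With FGF17, those 5 and Osmr fell, beside 22.5% of all genes lower and 16.2% higher, with the same limit. The falls with FGF17 were 4.72 ± 0.36 for Sprr1a, 2.84 ± 0.33 for Il6, 1.37 ± 0.18 for Socs3, 1.31 ± 0.23 for Il11, 1.12 ± 0.18 for Lif and 0.56 ± 0.15 for Osmr (adjusted p 3.55e-08 to 0.00703). The 2 sets of libraries share none, but a difference between them is the FGF17 contrast between days given further on.

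FGF17 was compared with control vector at each day after infarction. Without a sham group with Fgf17, a changed response to infarction cannot be told apart from a difference present before surgery. At day 3 none of the 9 transcripts passed the test in limma, and none had an unadjusted p under 0.05. Of all genes, 0.232% were called. MI day 3 FGF17 libraries held 132, 123, 119 and 87.2 FPKM of Sprr1a, overlapping the control libraries, a difference of -0.29 ± 0.33 (adjusted p = 0.901). They held 2.52, 10.1, 2.52 and 4.55 FPKM of Il6 (0.23 ± 0.30, adjusted p = 0.916), and library 2 stood above the others. Socs3 was at 11.4, 18.9, 9.93 and 16.1 FPKM (0.02 ± 0.17, adjusted p = 0.989), again with library 2 highest. Library 2 also held the highest Osm of its group, 1.06 FPKM against 0.0626 to 0.234 FPKM. Summed erythroid markers were at 4886 to 7941 FPKM with FGF17 and 15140 to 25730 FPKM with control vector at day 3 (2 of 7 fell), and summed macrophage markers at 919 to 1157 and 1206 to 1441 FPKM (none of 9 passed), without overlap. Their part in these values was not tested.

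The other day 3 FGF17 values overlapped the control values too. Il11 was at 0.416, 1.26, 0.720 and 1.51 FPKM, and Lif at 0.810, 1.03, 0.791 and 1.19 FPKM. Osmr was at 7.04, 6.57, 6.36 and 8.12 FPKM, Il6st at 25.7, 13.1, 24.1 and 17.6 FPKM and Stat3 at 14.4, 15, 13.3 and 16.8 FPKM. Against sham, 7 of the 9 were higher at day 3 with FGF17, all but Osm and Il6st, beside 43.1% of all genes. Il6, Il11 and Lif were tested only because of their day 3 levels, so their rise cannot be read against that share. Osm passed against sham with control vector and not with FGF17 (0.56 ± 0.34, adjusted p = 0.175), but the direct difference at day 3, -0.38 ± 0.34, did not pass (0.864). Among the other pathway genes described here, only Cish, a STAT5-induced inhibitor, was called at day 3 with FGF17 (0.80 ± 0.16, adjusted p = 0.0435), and leaving out any 1 of 12 libraries, 4 of them sham, lost the call.

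At day 14, Sprr1a was the only one of the 9 that passed, lower with FGF17. Of all genes, 5.98% were lower and 3.63% higher. MI day 14 FGF17 libraries held 5.99, 1.72 and 5.19 FPKM of Sprr1a against 10.6, 13 and 9.39 FPKM with control vector. The groups did not overlap, and library 3, at 1.72 FPKM, was the lowest. The change was -1.39 ± 0.38 (adjusted p = 0.0312), 0.391 of the control mean. The call was fragile. It was lost without MI day 14 FGF17 library 3 (-0.91, adjusted p = 0.156), control library 1 (0.111) or control library 2 (0.107). It was also lost with a pseudocount of 0.1 (0.171), after rescaling every library to 1000000 (0.134), without mitochondrially encoded genes (0.164), with only the 2 groups fitted (0.101) and with a replicate block (0.0539). In all of these the change stayed negative. Sprr1a remained above sham with FGF17 at day 14, by 2.49 ± 0.36 (adjusted p = 9.9e-05).

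Il6, Il11 and Lif were also lower in the day 14 FGF17 libraries, without passing the test, while Osm overlapped (-0.10 ± 0.39, adjusted p = 0.907). Il6 was at 0.293, 0.0780 and 0.122 FPKM with FGF17, below every control library (-0.73 ± 0.35, adjusted p = 0.195). Il11 was at 0.129, 0 and 0.0884 FPKM, also below every control library (-0.66 ± 0.25, 0.0992). It passed with a pseudocount of 0.1 (0.0304), after rescaling to 1000000 (0.0492) and without mitochondrially encoded genes (0.0295). Lif was at 0.238, 0.0750 and 0.20 FPKM and did not overlap the control libraries (-0.35 ± 0.19, 0.248). In all, 4 of the 9 (Il6, Il11, Lif and Sprr1a) did not overlap and were lower, against 14.8% of all genes. All 3 ligands were under 0.5 FPKM in these FGF17 libraries, and the depth behind such low values is unknown.

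The receptor and signalling transcripts showed no such separation at day 14. With FGF17, Osmr was at 5.44, 4.15 and 4.25 FPKM (-0.28 ± 0.16, adjusted p = 0.27) and Il6st at 15.1, 26.5 and 15.4 FPKM. Stat3 was at 11.3, 13 and 14.3 FPKM and Osm at 0.114, 0.0493 and 0.195 FPKM. Socs3 was at 5.26, 4.75 and 4.86 FPKM, within the range of the control libraries (0.08 ± 0.19, adjusted p = 0.828). Against sham, 2 of the 9, Sprr1a and Socs3, were higher at day 14 with FGF17, beside 26.6% of all genes higher, and 4 of the 9 after rescaling to 1000000. With control vector it was 7, but the sham libraries are the same in both comparisons, and the direct difference is the FGF17 contrast above.

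Cell markers moved with the day 14 difference. Macrophage markers summed to 533 to 600 FPKM with FGF17 and 663 to 1016 FPKM with control vector, and 2 of 9 fell. Fibroblast markers summed to 622 to 833 and 922 to 1252 FPKM, and 4 of 10 fell. Cardiomyocyte markers summed to 8674 to 10350 and 7082 to 8579 FPKM, and 3 of 10 rose. Also lower were the sums of endothelial markers (231 to 273 against 276 to 307 FPKM, 1 of 9 fell) and skeletal muscle markers (557 to 661 against 667 to 823 FPKM, 1 of 4 tested fell). The same held for adipocyte markers (29.3 to 55.2 against 66.4 to 113 FPKM, 1 of 5 fell) and mesothelial markers (19.7 to 20.3 against 20.8 to 40.1 FPKM, none of 7 passed). None of these ranges overlapped, and their part in the Sprr1a difference was not tested. Of all genes, 5.98% were lower and 3.63% higher in this comparison. The counts of marker and list genes given here were not tested against those shares. Among the other pathway genes at day 14, Cntfr was higher by 0.78 ± 0.22 (adjusted p = 0.0316), Socs7 higher by 0.46 ± 0.11 (0.0188) and Socs2 lower by 0.46 ± 0.11 (0.016). Each of these 3 calls was lost when any of at least 3 libraries was left out and when only the 2 groups were fitted. Of the STAT3 response genes, 2 rose and 4 fell, Timp1 by -1.04 ± 0.26 and Ch25h by -0.81 ± 0.19. Of the cardiomyocyte stress genes 4 of 20 fell, among them Nppa, atrial natriuretic peptide, by -0.81 ± 0.19. The calls of Timp1, Ch25h and Nppa were lost with only the 2 groups fitted (adjusted p = 0.128, 0.0857 and 0.0693) and without control library 1 or 2.

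Whether the FGF17 effect differed between the days was tested directly. None of the 9 passed in limma, and 1, Sprr1a, had an unadjusted limma p under 0.05 (-1.10 ± 0.51, adjusted p = 0.339). Of all genes, 0.365% passed. For Il6 the difference was -0.96 ± 0.46 (adjusted p = 0.366). A larger FGF17 effect at day 14 than at day 3 is therefore not shown for any of these transcripts.

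The order of the group means summarises the levels. For Sprr1a it was MI day 3 control, MI day 3 FGF17, MI day 14 control, MI day 14 FGF17 and sham, and only the 2 day 3 groups overlapped as neighbours. For Il6 and Lif it was MI day 3 FGF17, MI day 3 control, MI day 14 control, MI day 14 FGF17 and sham, with overlap between the day 3 groups and between MI day 14 FGF17 and sham. Il11 had the 2 day 3 groups in the opposite order, and its MI day 3 FGF17 group overlapped MI day 14 control. In Osm all neighbours overlapped.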

How the data were processed

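RNA of 18 mouse heart libraries in 5 groups was measured by RNA-seq. Per the labels' protocols, RNA was extracted with Trizol and sequenced on standard Illumina libraries. The submitters' processing notes name FastQC 0.11.7, cutadapt 1.17, HISAT2 2.1.0, StringTie 1.3.3 and the build GRCm38, with no roles or order. The authors deposited 1 table of FPKM values for 12988 protein-coding genes. FPKM corrects for length and mapped fragments, and leaves uncorrected any shift in which genes take up the fragments. Depth is unknown, so no counting intervals are given. No housekeeping gene of 16 checked was at 0 in any library.

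Columns were assigned by name: 8 to a sample and 10 to a group only. Library numbers are those in the column headings. Genes reaching 1 FPKM in 3 or more libraries (12052, all 9 members among them) were fitted as log2(FPKM + 0.5) with limma 3.58.1 in R 4.3.3: 5 group means, trended eBayes, 9 contrasts that share groups, two-sided p-values, Benjamini-Hochberg adjustment within each contrast. The procedure was tested on simulated data. All 9 members were named in every comparison. The other genes came from 7 pathway lists, and marker lists of 13 cell types were summed: some genes of these lists are not reported here; otherwise every measured gene of the ligand, receptor, JAK and STAT and feedback lists could be named, and of the other pathway lists the 5 with the smallest p. The members and lists were chosen with earlier results of these data known. Of 13 symbols with several table entries, 1 marker was left out.

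Promoter windows are RefSeq's (GRCm38.p6), and 8 of the 9 members had 9 windows, Il11 having 2. The background share counts windows. Annotation was GENCODE on GRCm38. Alternatives were pseudocounts of 0.1 and 1, no filter or 5 FPKM, median-of-ratios scaling, rescaling to 1000000, removal of the 13 mitochondrially encoded genes, the library number as a block, robust eBayes, fits of only the groups compared, leaving out the 2 libraries of lowest mitochondrial share, and leaving out each library.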

Additional observations from a re-analysis of the deposited data

Results flagged for a closer look

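Of 27 group and transcript combinations with 4 libraries, 3 had a library far from the other 3 by Dixon's criterion at the 95% level, and chance alone flags about 1 in 20. Sprr1a was at 180.6 FPKM in MI day 3 control library 2, against 122 to 131 FPKM in the other libraries. Il6st was at 26.34 FPKM in the same library, against 15.4 to 16.9 FPKM. Il11 was at 0.06571 FPKM in sham library 2 and listed at 0 in the others. With the other 3 libraries at 0, any value above 0 is flagged, so the Il11 flag carries no information.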

How the results depend on the processing

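With a filter of 5 FPKM only 5 of the 9 transcripts were tested, so fewer could be called: 4 at day 3, 4 at day 14 and 4 at MI day 3 with FGF17 against sham, 2 between the days with control vector and 3 with FGF17. Median-of-ratios scaling left 3 of 7 calls at day 14, and rescaling to 1000000 gave 4 calls, from 2, at MI day 14 with FGF17 against sham. For FGF17 at day 14 the 1 call became 0 with only the groups compared and 0 with a replicate block. Leaving out 1 library gave 4 to 7 calls at day 14 against sham (4 without MI day 14 control library 1) and 0 to 1 for FGF17 at day 14 (0 without control library 1 or 2 or FGF17 library 3). The cause of these shifts was not tested. Same-numbered day 3 libraries of the 2 vectors had deviations that correlated at -0.0189, -0.0998, -0.0684 and -0.0468 across genes. Differently numbered libraries and the other groups were not compared, so this cannot settle whether the numbers mark a pairing or batch.

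Il6st, never called, changed sign. Against sham at day 3 it gave -0.25 with median-of-ratios scaling, -0.14 without mitochondrially encoded genes, -0.24 with the replicate block and -0.16 to 0.20 with 1 library left out. At day 14 it gave 0.0287 after rescaling and -0.33 to 0.13 with 1 library left out. Between the days it gave 0.0101 without mitochondrially encoded genes, 0.0015 with the replicate block and -0.38 to 0.10 with 1 library left out, and with FGF17 0.0394 without the 2 libraries of lowest mitochondrial share and -0.34 to 0.0543. With FGF17 against sham it gave -0.12 and -0.14 (median-of-ratios, replicate block; 1 library left out -0.0562 to 0.34) at day 3. At day 14 these were -0.17 and -0.22, with -0.0258 without mitochondrially encoded genes and -0.19 to 0.23. Its FGF17 difference between days gave 0.0393 after rescaling, 0.19 without those 2 libraries and -0.26 to 0.30.

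Other uncalled changes that turned sign were those of FGF17 at day 3 with 1 library left out, for Il6 (-0.16 to 0.44), Il11 (-0.27 to 0.11), Lif (-0.0419 to 0.21), Il6st (-0.0277 to 0.29), Stat3 (-0.0216 to 0.0868, and -0.0069 without the 2 libraries) and Socs3 (-0.13 to 0.17). At day 14 they were Osm (-0.23 to 0.15, and 0.0626 with the replicate block), Il6st (-0.16 to 0.40) and Stat3 (-0.15 to 0.0154). For Socs3 the difference between days gave -0.0106 without mitochondrially encoded genes, -0.0111 without the 2 libraries and -0.0868 to 0.21. Ankrd1 and Dstn at day 3 gave -0.0106 and -0.0327 with median-of-ratios scaling. Called rises and falls of the 9 kept their direction under every alternative run. Unknown depth limits values under 1 FPKM most.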
